A study of Rattus norvegicus with 47 samples.

Results

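The complement genes described here are 9 genes named for their place in the cascade: C1qa, C3, Cfb, Cfd, Cfp, C3ar1, C5ar1, Cd55 and Cd59. They were chosen by gene symbol, with earlier results of these data known. Of the 9, 7 were found under their symbols, each on 1 probe set, among 27596 probe sets and 20935 distinct symbols. C5ar1, the receptor for the C5a fragment, and Cd59, which blocks the last step of the membrane attack complex, were not found under those symbols and were not analysed here.

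The study followed mRNA in whole blood over the first day after experimental stroke, with the question of how early and how fast transcripts change. All blood came from the same 8 male spontaneously hypertensive (SHR) rats, aged 16 weeks, an inbred strain with high blood pressure. The middle cerebral artery (MCA) was occluded under isoflurane with a silicon-coated thread, and the thread was withdrawn under a further anaesthesia between the 1 h and 2 h samples. The 0 h group was drawn immediately before anaesthesia and is the only control, since no sham-operated rats are among the samples. The 1, 2, 3 and 6 h groups were drawn, like the 0 h group, from a lateral tail vein. The 24 h group came from the heart after an overdose of anaesthetic, so time and site of sampling cannot be told apart at 24 h. The 6 h group had 7 arrays and every other group 8, 47 in all. Surgery, anaesthesia, reperfusion, repeated bleeding and occlusion cannot be told apart in this design.

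Complement is a chain of plasma proteins that marks and lyses targets and draws in leukocytes. C1q and the lectins start it, and the enzyme complexes they build cut C3, the component on which all routes meet. The alternative pathway amplifies that cut through factor B, factor D and properdin, small fragments such as C3a signal to leukocytes through receptors, and regulators on the host's own cells such as CD55 take the C3-cutting enzymes apart. The liver makes most plasma C3, while blood leukocytes also transcribe several components, so the values below are of mRNA in blood cells and not of plasma protein.

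Values are the authors' mean log2 signals with their SDs over the arrays of a time point. A difference of 1 on this scale is a doubling. Differences between time points were tested with limma's moderated test, with Benjamini-Hochberg adjustment over all 27596 probe sets and an adjusted p of 0.05 as the threshold. Single-array values were not used, so whether the values of single rats overlap between time points is not stated. The arrays of 1 rat were treated as separate samples.

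Across the 6 time points, all 7 measured genes passed the F-test, against 55.5% of all probe sets. C3 and Cfd rose most, C3ar1 fell at every later time point, Cfp and Cd55 were raised at 2 h and 6 h but not at 3 h, the probe set of Cfb rose at 3 h and 6 h, and C1qa moved by less than 0.3. In bulk blood, fewer cells of a type and less RNA per cell cannot be told apart. In the 1 h samples 3 genes were called higher than before occlusion and 1 lower, beside 21.7% and 15.4% of all probe sets. In the 2 h samples 5 were higher and 1 lower (all probe sets, 21.7% and 18.6%). The 3 h samples had 4 higher and 1 lower (27.3% and 19.2%), and the 6 h samples 5 higher and 1 lower (22.5% and 19.3%). In the 24 h samples only Cfd was higher and only C3ar1 lower, beside 17.4% and 13.9% of all probe sets. With quantile-normalized means Cfp was higher there too (0.21, adjusted p = 0.0104). Centring the means on the median of all probe sets moved the shares of all probe sets called higher to 12.6%, 16.1%, 19.1%, 16.9% and 9.96% after 1, 2, 3, 6 and 24 h, and those called lower to 18.8%, 20.3%, 21.4%, 21% and 16.8%. A largest change over 0.5 together with a passed F-test was seen in 3 of the 7 genes, C3, Cfd and C3ar1, and in 16.7% of all probe sets. The median of all probe sets moved by 0.04 to 0.07 against 0 h, which is small beside the changes of C3, Cfd and C3ar1 but not beside those of C1qa.

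**Figure D1:**
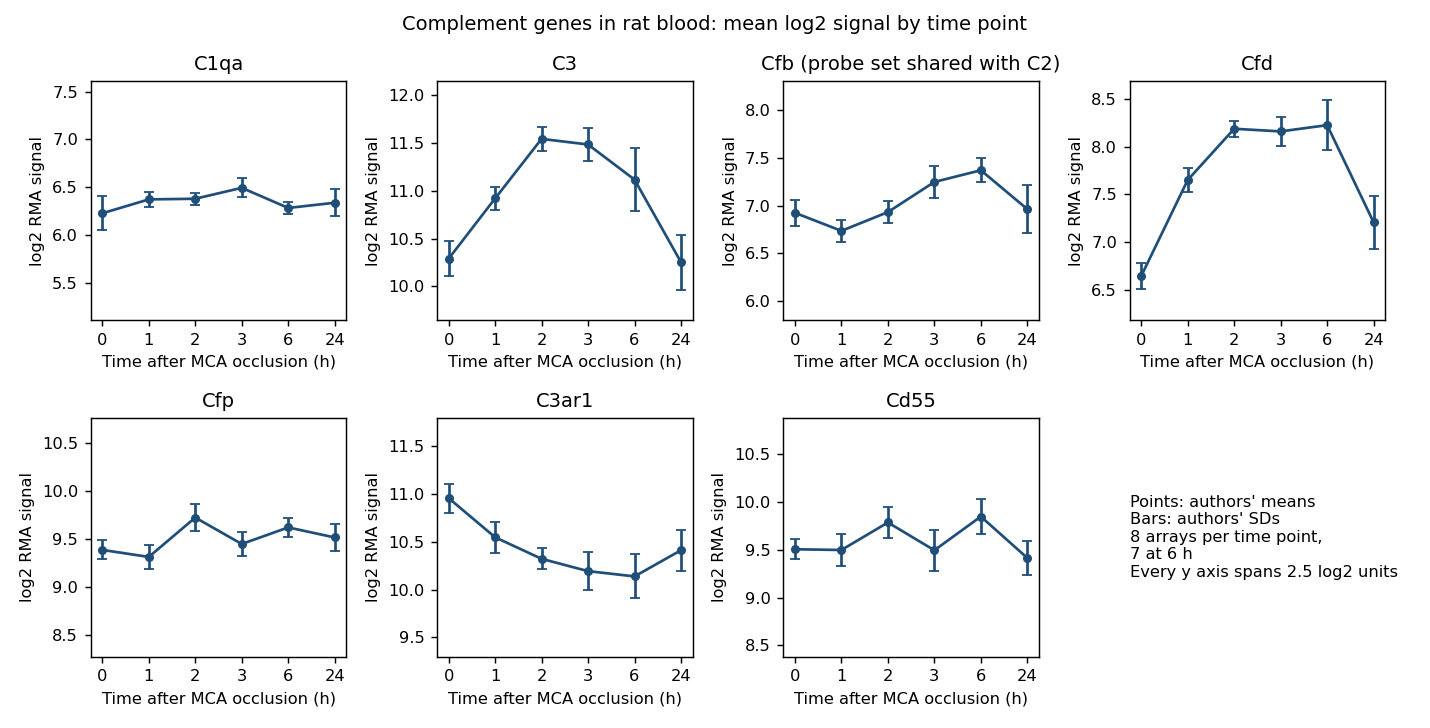
Mean log2 signal (y axis, 2.5 units in every panel) of the 7 complement genes at 0, 1, 2, 3, 6 and 24 h post MCA occlusion (x axis, time points evenly spaced), with points for the authors' means and bars for their SDs over 8 arrays (7 at 6 h). C3 climbs from 10.29 to 11.54 at 2 h and is back at 10.25 at 24 h, Cfd climbs from 6.65 to 8.23 at 6 h, and C3ar1 drops from 10.96 to 10.14 at 6 h.

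C1qa encodes the A chain of C1q, the pattern-recognition part of the C1 complex that starts the classical pathway. Its probe set (10880734) lies at chr5:159023751-159026600 on the minus strand of rn5. Its signal averaged 6.23 ± 0.18 before occlusion, 6.37 ± 0.08 after 1 h, 6.38 ± 0.06 after 2 h, 6.49 ± 0.10 after 3 h, 6.28 ± 0.06 after 6 h and 6.34 ± 0.14 after 24 h. The 3 h mean was the highest and the 0 h mean the lowest, and the SDs were largest at these ends of the day, 0 h and 24 h. The rise at 3 h was 0.27 (SE 0.06, adjusted p = 2.66e-04), a 1.20-fold difference. The rises of 0.15 at 1 h and 2 h lay near the threshold (adjusted p = 0.048 and 0.0355) and did not pass it when the means were centred on the median of all probe sets (0.219 and 0.0981) or quantile normalized (0.383 and 0.199). At 6 h and 24 h the differences were 0.06 (95% interval -0.07 to 0.18) and 0.11 (-0.01 to 0.23), neither past the threshold.

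C3 encodes the central component, whose cleavage yields the anaphylatoxin C3a and the opsonin C3b. Its probe set (10931717) lies at chr9:8728464-8754404 on the plus strand of rn5. The authors' mean was 10.29 ± 0.18 before occlusion, 10.92 ± 0.12 after 1 h, 11.54 ± 0.12 after 2 h, 11.48 ± 0.17 after 3 h, 11.12 ± 0.33 after 6 h and 10.25 ± 0.29 after 24 h. The 2 h and 3 h means stood highest, the 0 h and 24 h means lowest, and the spread between rats was widest at 6 h and 24 h. C3 was up by 0.63 (SE 0.10, adjusted p = 5.09e-06) already at 1 h and by 1.25 (SE 0.10, adjusted p = 4.65e-14) at 2 h, which is 2.38-fold and 3.81 times the largest SD of any time point. From 3 h to 6 h it fell by 0.37 (adjusted p = 0.0339), a step that was not past the threshold when the variance came from those 2 time points alone or when means were quantile normalized (adjusted p up to 0.116). At 24 h the difference from 0 h was -0.04, with a 95% interval of -0.24 to 0.17 and an adjusted p of 0.814. Across all time points its F-test ranked 316 among all probe sets (adjusted p = 3.85e-17).

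Cfd encodes factor D (adipsin), the serine protease that cuts factor B once it is bound to C3b. Its probe set (10900735) lies at chr7:12803938-12805661 on the minus strand of rn5. Mean Cfd signal was 6.65 ± 0.14 before occlusion, 7.65 ± 0.12 after 1 h, 8.19 ± 0.09 after 2 h, 8.16 ± 0.15 after 3 h, 8.23 ± 0.26 after 6 h and 7.21 ± 0.28 after 24 h. The means formed a plateau from 2 h to 6 h, where no pair of time points differed past the threshold, with 1 h and 24 h between it and the 0 h mean. Cfd was up by 1.00 (SE 0.09, adjusted p = 2.80e-12) at 1 h and by 1.58 (SE 0.09, adjusted p = 7.20e-19) at 6 h, a 2.98-fold difference. Its rise was the largest of the 7 genes and 5.67 times its largest SD. At 24 h it was still higher than before occlusion by 0.56 (95% interval 0.38 to 0.74, adjusted p = 5.63e-06), 35.6% of its largest change. Its F-test ranked 75 among all probe sets (adjusted p = 3.19e-21).

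The promoters of C3 and Cfd are shown because these are the 2 genes with the largest rises. Each spans 300 bases around the gene's start, most of them upstream, in RefSeq on GRCr8, C3 at chr9:2201290-2201589 and Cfd at chr7:10465447-10465746, both on the minus strand and printed 5′ to 3′ along the gene. GRCr8 places C3 on the strand opposite to that in rn5. Capitals mark matches to the C/EBP motif, the binding letters of a factor family of myeloid cells and liver, searched as TTNNGNAA on both strands.
C3: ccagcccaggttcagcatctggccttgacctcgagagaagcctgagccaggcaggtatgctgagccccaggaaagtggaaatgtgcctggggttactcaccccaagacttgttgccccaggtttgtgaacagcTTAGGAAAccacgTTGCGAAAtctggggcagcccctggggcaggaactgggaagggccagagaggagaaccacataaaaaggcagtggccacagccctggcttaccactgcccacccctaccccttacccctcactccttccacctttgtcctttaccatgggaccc
Cfd: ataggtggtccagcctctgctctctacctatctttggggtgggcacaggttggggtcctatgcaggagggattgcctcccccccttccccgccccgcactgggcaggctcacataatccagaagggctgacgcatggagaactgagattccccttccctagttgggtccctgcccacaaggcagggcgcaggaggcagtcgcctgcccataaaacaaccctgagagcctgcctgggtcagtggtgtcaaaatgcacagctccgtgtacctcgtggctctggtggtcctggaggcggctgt
The C3 promoter held TTAGGAAA at position -117 and TTGCGAAA at position -104 from the start, the latter matching on both strands, so that these counts overlap at 1 place. The Cfd promoter held no match to this motif or to the other motifs searched. Of 33469 rat promoters of the same length, 41.3% held the C/EBP letters, so a match is common. The STAT letters TTCNNNGAA (8.87% of promoters), the glucocorticoid receptor letters TGTTCT (20.7%) and the PU.1 letters GAGGAAG (12.4%) were searched in the same way. The search covered the promoters of 6 genes, all but Cfb, for which the RefSeq promoter set used gave no entry. The sole further match was TTCCAAGAA at position -90 of C1qa, for STAT. Cfp, C3ar1 and Cd55 held none of these letters in this window. No measurement here bears on binding at these sequences.

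Cfb encodes factor B, the subunit that carries the protease of the alternative pathway's C3 convertase. Its probe set (10828162, chr20:6616004-6641062 on the minus strand of rn5) is annotated to both C2 and Cfb, neighbouring genes of like structure, so their transcripts cannot be told apart here. The mean of the shared probe set was 6.92 ± 0.14 before occlusion, 6.74 ± 0.12 after 1 h, 6.93 ± 0.12 after 2 h, 7.25 ± 0.17 after 3 h, 7.37 ± 0.12 after 6 h and 6.96 ± 0.25 after 24 h. The means at 3 h and 6 h were the high ones and the 1 h mean was the lowest. The probe set was higher than at 0 h by 0.32 (SE 0.08, adjusted p = 9.06e-04) at 3 h and by 0.45 (SE 0.08, adjusted p = 1.85e-05) at 6 h, a 1.36-fold difference. At 1 h the difference was -0.19 (95% interval -0.35 to -0.03), with an adjusted p of 0.0562 that passed the threshold when means were centred (0.0184) or quantile normalized (0.0376), when the dimmest 25% of probe sets were left out (0.0482) and when the variance came from these 2 time points (0.0302). Between 2 h and 3 h it rose by 0.31 (adjusted p = 0.0135). The differences from 0 h at 2 h and 24 h were 0.01 and 0.04, with intervals of -0.15 to 0.17 and -0.12 to 0.20.

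Cfp encodes properdin, which holds the alternative pathway's convertase together and is stored by neutrophils. Its probe set (10936510) lies at chrX:2126160-2131641 on the plus strand of rn5. Its mean signal was 9.39 ± 0.10 before occlusion, 9.31 ± 0.13 after 1 h, 9.72 ± 0.14 after 2 h, 9.45 ± 0.12 after 3 h, 9.62 ± 0.10 after 6 h and 9.52 ± 0.14 after 24 h. The means were high at 2 h and 6 h, with a lower mean at 3 h. Cfp was up by 0.34 (SE 0.06, adjusted p = 2.08e-05) at 2 h, 1.26-fold, and by 0.24 (SE 0.06, adjusted p = 0.00307) at 6 h. From 2 h to 3 h it fell by 0.28 (adjusted p = 0.00512), whereas the difference of 0.17 from 3 h to 6 h did not pass the threshold (adjusted p = 0.12). No neighbouring means in its order of levels differed past the threshold. The difference at 24 h was 0.13 (95% interval 0.0037 to 0.26, adjusted p = 0.109), and 0.21 with quantile-normalized means (adjusted p = 0.0104).

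C3ar1 encodes the receptor for C3a, carried by monocytes, granulocytes and other myeloid cells. Its probe set (10865369) lies at chr4:222704901-222711635 on the minus strand of rn5. Its mean signal was 10.96 ± 0.15 before occlusion, 10.55 ± 0.16 after 1 h, 10.32 ± 0.11 after 2 h, 10.19 ± 0.20 after 3 h, 10.14 ± 0.23 after 6 h and 10.41 ± 0.22 after 24 h. The 0 h mean was the highest, the 3 h and 6 h means were the lowest, and the receptor was below its 0 h mean at each time point at which C3, the precursor of its ligand, was raised. C3ar1 fell by 0.41 (SE 0.09, adjusted p = 3.26e-04) at 1 h and by 0.82 (SE 0.09, adjusted p = 3.80e-10) at 6 h, when it was 1.76-fold lower than at 0 h. At 24 h it was still lower by 0.54 (95% interval of the difference -0.72 to -0.37, adjusted p = 7.17e-06), 66.6% of its largest change. After 1 h, no neighbouring means in its order of levels differed past the threshold. The rise from 6 h to 24 h was 0.27 (adjusted p = 0.0286), or 0.0879 when the variance came from these 2 time points alone.

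Cd55 encodes decay-accelerating factor, a membrane protein that takes apart the C3 convertases on the cell that carries it. Its probe set (10767388) lies at chr13:52177558-52206118 on the minus strand of rn5. Its mean signal was 9.51 ± 0.10 before occlusion, 9.50 ± 0.16 after 1 h, 9.79 ± 0.16 after 2 h, 9.49 ± 0.22 after 3 h, 9.85 ± 0.18 after 6 h and 9.41 ± 0.17 after 24 h. The means at 2 h and 6 h were high, and those at 0, 1, 3 and 24 h lay close together. Cd55 was up by 0.28 (SE 0.08, adjusted p = 0.00606) at 2 h and by 0.34 (SE 0.09, adjusted p = 0.00123) at 6 h, a 1.27-fold difference, while at 3 h the difference from 0 h was -0.01 (95% interval -0.18 to 0.16). The steps were a fall of 0.29 from 2 h to 3 h (adjusted p = 0.0366) and a rise of 0.35 from 3 h to 6 h (adjusted p = 0.00939). With the variance taken from the 2 time points of each step, these adjusted p were 0.0978 and 0.058, so neither step passed. From 6 h to 24 h Cd55 fell by 0.43 (adjusted p = 1.49e-04).

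Of the 105 pairs of time points over the 7 genes, 59 differed past the threshold, beside 20.6% of all pairs over all probe sets. C3 and Cfd each differed in 12 of 15 pairs, Cfb, C3ar1 and Cd55 in 8, Cfp in 7 and C1qa in 4. Between the 1 h and 2 h samples C3, Cfd, Cfp and Cd55 rose, by 0.62, 0.54, 0.41 and 0.29, where 4.66% of all probe sets were called higher. Between 2 h and 3 h Cfb rose while Cfp and Cd55 fell, with 1.90% of all probe sets called higher and 1.62% lower. Between 3 h and 6 h Cd55 rose while C3 and C1qa fell, with 2.34% higher and 2.44% lower. The step from 6 h to 24 h brought falls of C3, Cfd, Cfb and Cd55 and a rise of C3ar1, with 8.68% of all probe sets lower and 10.2% higher. The fall of C1qa from 3 h to 6 h (0.21, adjusted p = 0.0333) did not pass with the variance of those 2 time points (0.06).

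**Figure D2:**
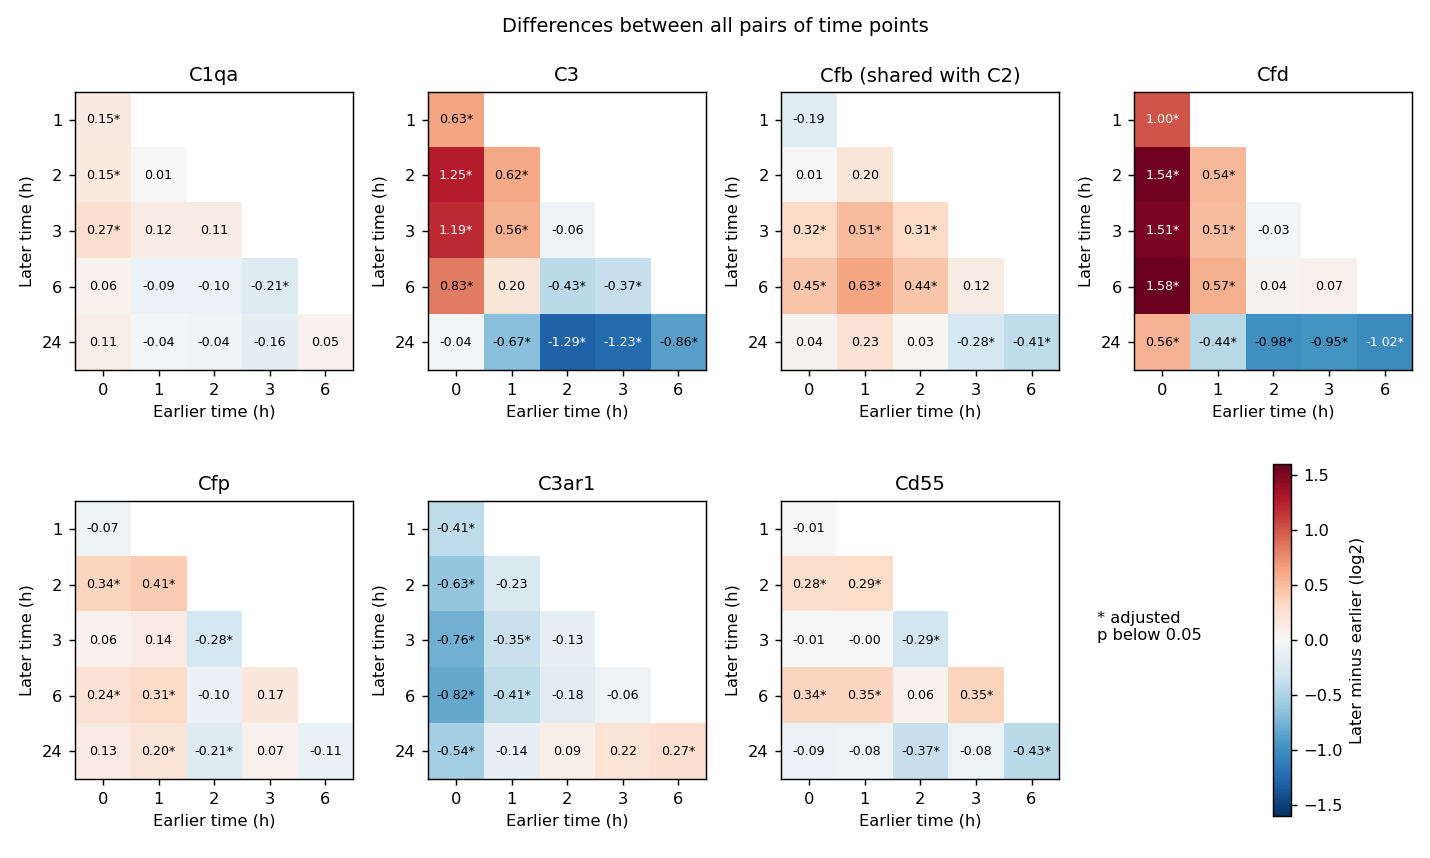
Later minus earlier mean log2 signal for every pair of time points and each of the 7 genes, with the earlier time on the x axis, the later time on the y axis, red for higher and blue for lower at the later time, and an asterisk for an adjusted p below 0.05. The first column of C3ar1 runs from -0.41 to -0.82 and back to -0.54, while that of Cfd runs from 1.00 to 1.58 and back to 0.56.

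The other complement genes were read from a list of 49 symbols that also holds the 9 genes above, of which 45 were found, on 43 probe sets. The F-test called 32 of the 43, and 25 of the 36 probe sets left when the 7 above are set aside, beside 55.5% of all probe sets. The median of the largest change from 0 h, without sign, was 0.30 over the list and 0.24 over all probe sets. Of the 43, those called higher than before occlusion numbered 16, 15, 15, 18 and 11 in the 1, 2, 3, 6 and 24 h samples, and those called lower 6, 4, 5, 5 and 2. The shares called higher were thus 37.2%, 34.9%, 34.9%, 41.9% and 25.6%, beside 21.7%, 21.7%, 27.3%, 22.5% and 17.4% of all probe sets. Those called lower were 14%, 9.30%, 11.6%, 11.6% and 4.65%, beside 15.4%, 18.6%, 19.2%, 19.3% and 13.9%. With quantile-normalized means those higher numbered 12, 12, 14, 14 and 7, beside 15%, 18.2%, 19.5%, 17.6% and 12.5% of all probe sets. With centred means they numbered 12, 11, 12, 14 and 8, beside 12.6%, 16.1%, 19.1%, 16.9% and 9.96%. Lower calls at 2 h numbered 6 with either, in place of 4, beside 17.5% and 20.3% of all probe sets.

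Among the 15 probe sets of initiation genes, 11 passed the F-test, beside 55.5% of all probe sets. Those called higher than before occlusion numbered 7, 7, 9, 9 and 5 in the 1, 2, 3, 6 and 24 h samples, where 21.7%, 21.7%, 27.3%, 22.5% and 17.4% of all probe sets were. With quantile-normalized means these counts were 5, 4, 7, 6 and 1, beside 15%, 18.2%, 19.5%, 17.6% and 12.5% of all probe sets. The 1 of 15 at 24 h then lay below the share of all probe sets. With centred means the counts were 5, 4, 7, 6 and 3, beside 12.6%, 16.1%, 19.1%, 16.9% and 9.96%. Those called lower were 2, both at 1 h, where 15.4% of all probe sets were lower. They were the ficolins Fcna and Fcnb, named after their values were seen. The call of Fcna was lost with quantile-normalized means and with the variance of the 2 time points compared (adjusted p up to 0.16). Fcnb, lower by 0.43 at 1 h, was called higher than before occlusion at 3 h (0.37) and 6 h (0.36). Its 6 h call was lost without moderation and with centred means. C1qb and C1qc, which encode the partner chains of C1qa, had their largest rises of 0.27 at 3 h and 0.28 at 6 h. The probe set shared by C4a and C4b, copies of the component that C1s cuts, rose by 0.33, 0.60, 0.53 and 0.50 at 1, 2, 3 and 6 h, and at 24 h its difference was 0.11, not past the threshold (F-test adjusted p = 4.84e-13). All 4 amplification genes, C3, Cfb, Cfd and Cfp, passed the F-test, beside 55.5% of all probe sets. These genes were already described above. The probe set of Cfb, shared with C2, is also counted among the 15 initiation probe sets.

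The terminal components, which build the membrane attack complex, were mostly dim: 2 of 7 lay above the dimmest 25% of all probe sets, and 3 passed the F-test, beside 55.5% of all probe sets. These 3, named after their values were seen, were C5, C8b and C8g, of which C5 and C8b were among the dimmest 25%. C5 was up by 0.32, 0.43 and 0.32 at 1, 2 and 3 h.

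All 8 measured receptor genes passed the F-test, beside 55.5% of all probe sets. Those called higher numbered 2, 1, 1, 1 and 3 after 1, 2, 3, 6 and 24 h, and those called lower 3, 3, 5, 5 and 2, to be read against the shares of all probe sets above. Itgam, the CD11b chain of complement receptor 3, rose by 0.41, 0.94, 0.93, 1.12 and 0.38 at 1, 2, 3, 6 and 24 h (F-test adjusted p = 8.15e-17). Itgb2, its CD18 partner, was lower by 0.30 at 3 h and 0.23 at 6 h, and Itgax, the CD11c chain of complement receptor 4, fell by 0.37 at 6 h. Cr2, the complement receptor of B cells, fell by 0.84, 1.13, 1.14 and 1.13 from 1 h to 6 h, and at 24 h its difference was -0.10 (adjusted p = 0.492). C1qbp, a mitochondrial protein that also binds the globular heads of C1q, was lower at all 5 later time points, by 0.99 at 2 h and 0.71 at 24 h. Cd93, first described as a C1q receptor, and Vsig4, a C3b receptor of tissue macrophages, were highest in the 24 h samples, by 0.82 and 0.50 over 0 h, the latter beside a largest SD of 0.51. The gene for the second C5a receptor, C5ar2, was not found under that symbol or the older Gpr77.

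Of the 10 regulator probe sets, 7 passed the F-test, beside 55.5% of all probe sets. Cd46, a membrane cofactor for the cleavage of C3b, was up by 0.40, 0.59 and 0.66 at 2, 3 and 6 h, of which the 2 h rise did not pass without moderation or when means were centred (adjusted p up to 0.0633). Clu, clusterin, which binds the terminal complex, was up by 0.47 at 1 h, 0.36 at 2 h and 0.42 at 24 h. Cr1l, the rodent regulator Crry, was lower by 0.20 at 1 h and 0.12 at 2 h and higher by 0.17 at 6 h. Serping1, the C1 inhibitor, did not pass the F-test (adjusted p = 0.876).

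**Figure D3:**
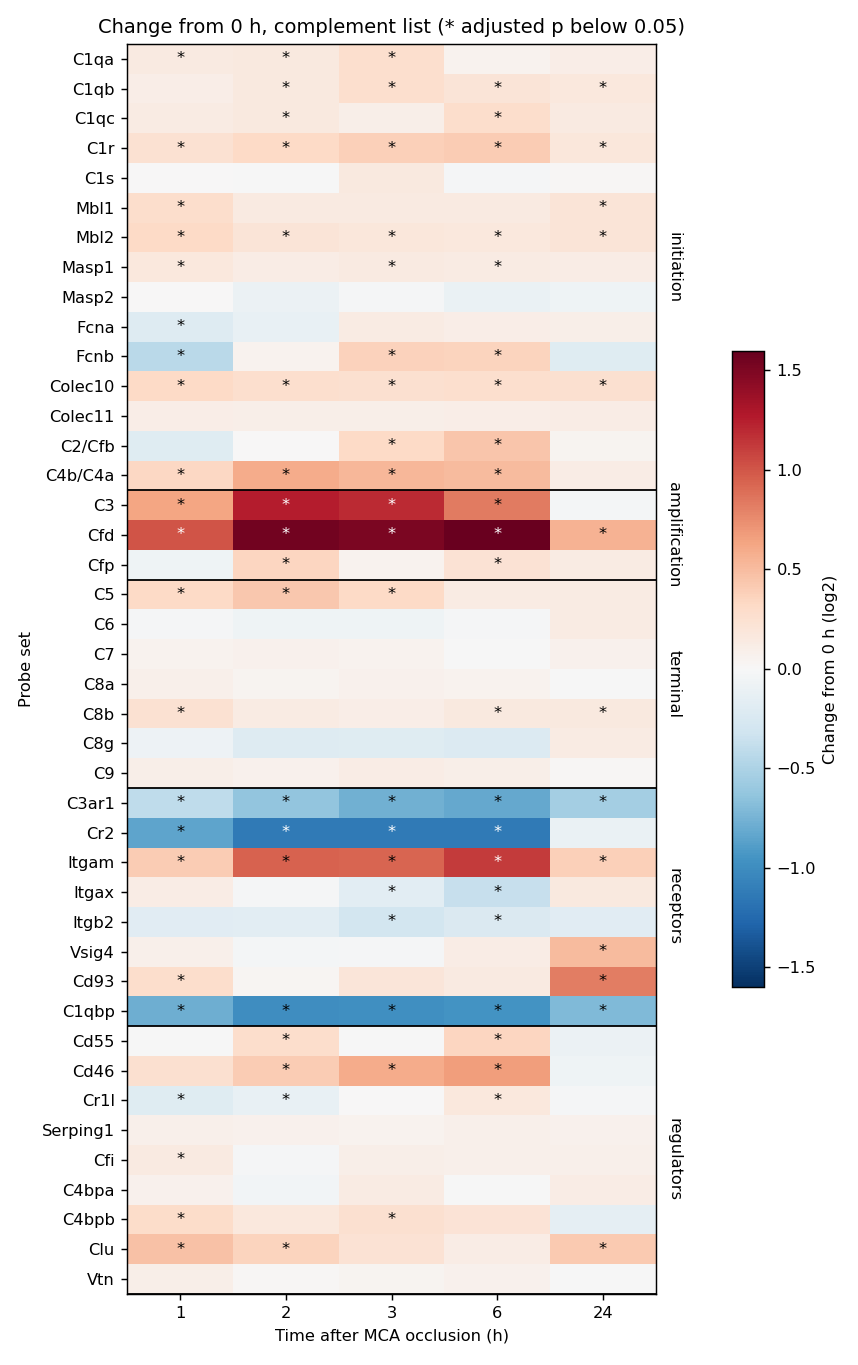
Change from 0 h in log2 signal (colour, red higher and blue lower) of 42 of the 43 complement probe sets (y axis, grouped by role, with the probe set shared by C2 and Cfb among the initiation genes) at 1, 2, 3, 6 and 24 h (x axis), with an asterisk for an adjusted p below 0.05. C3, Cfd and Itgam stand out as higher and C3ar1, Cr2 and C1qbp as lower, and the terminal components are pale.

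Marker genes of blood cell types also changed over the day, alongside the complement genes at some time points but not at others. Of 54 marker genes of 7 blood cell types, 53 were found, all above the dimmest 25% of probe sets. Beside the rises of C3, Cfd, Cfp and Itgam, 9 of 10 neutrophil markers were higher at 2, 3 and 6 h, where 21.7%, 27.3% and 22.5% of all probe sets were. At 24 h 7 of the 10 markers were higher (17.4%). Cfp itself was not past the threshold at 3 h (0.06), and C3 was not at 24 h (-0.04). The marker that was not called at any time point was Ltf. Their summed linear signal went from 13617 at 0 h to 26019, 35395, 32458, 38423 and 21949 at 1, 2, 3, 6 and 24 h, with a median change of 1.40 at 2 h and 1.55 at 6 h. The changes of Cfd at the same time points lay within the range of the neutrophil markers, which was 0.01 to 2.75 at 2 h. That range ran from Ltf to Mmp9 and also held the 2 h changes of C3 (1.25), Cfp (0.34), Cd55 (0.28) and C1qa (0.15). Lying within so wide a range does not set Cfd apart. The part of neutrophils in the rises of C3, Cfd, Cfp and Itgam was not tested.

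Beside the fall of C3ar1, the monocyte markers were split. Of 10, those called higher numbered 1, 4, 5, 5 and 1 after 1, 2, 3, 6 and 24 h and those called lower 6, 4, 4, 4 and 4, with median changes of -0.34, -0.05, 0.17, 0.13 and -0.14. Over all probe sets 21.7%, 21.7%, 27.3%, 22.5% and 17.4% were higher and 15.4%, 18.6%, 19.2%, 19.3% and 13.9% lower, which are also the shares to set beside the cell types that follow. Csf1r, Cx3cr1, Adgre1 and Cd68 were lower at all 5 later time points, for example by 1.05, 1.35, 1.90 and 0.55 at 6 h, whereas Vcan and Cd14 were higher by 2.26 and 1.34 at 6 h. The summed linear signal of the 10 monocyte markers was 16283 at 0 h and 13649, 17603, 19960, 19023 and 14965 at the later time points. B cell markers, beside which Cr2 fell, summed to 6249 before occlusion, 1882 after 3 h and 4235 after 24 h, with 6 or 7 of 7 lower from 1 h to 6 h. T cell markers were lower at every later time point in 7 of 7, and summed to 6617 at 0 h and 2924 at 6 h. NK cell markers summed to 5872 before occlusion and to 5968, 4663, 3956, 3615 and 3372 after 1, 2, 3, 6 and 24 h. Of 6, those higher numbered 1, 1, 0, 1 and 0 and those lower 1, 4, 4, 4 and 5. Platelet markers summed to 19748 before occlusion and to 22235, 19777 and 22696 after 1, 6 and 24 h, and erythroid markers to 28974 and to 32246, 26406 and 32812. Of 6 platelet markers, those called higher numbered 3, 2, 1, 0 and 4 after 1, 2, 3, 6 and 24 h, with 0 lower. Of 7 erythroid markers, 4, 1, 2, 0 and 4 were higher, and 2 were lower after 6 h. Their part in the changes of C3ar1 and the other complement genes was not tested.

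**Figure D4:**
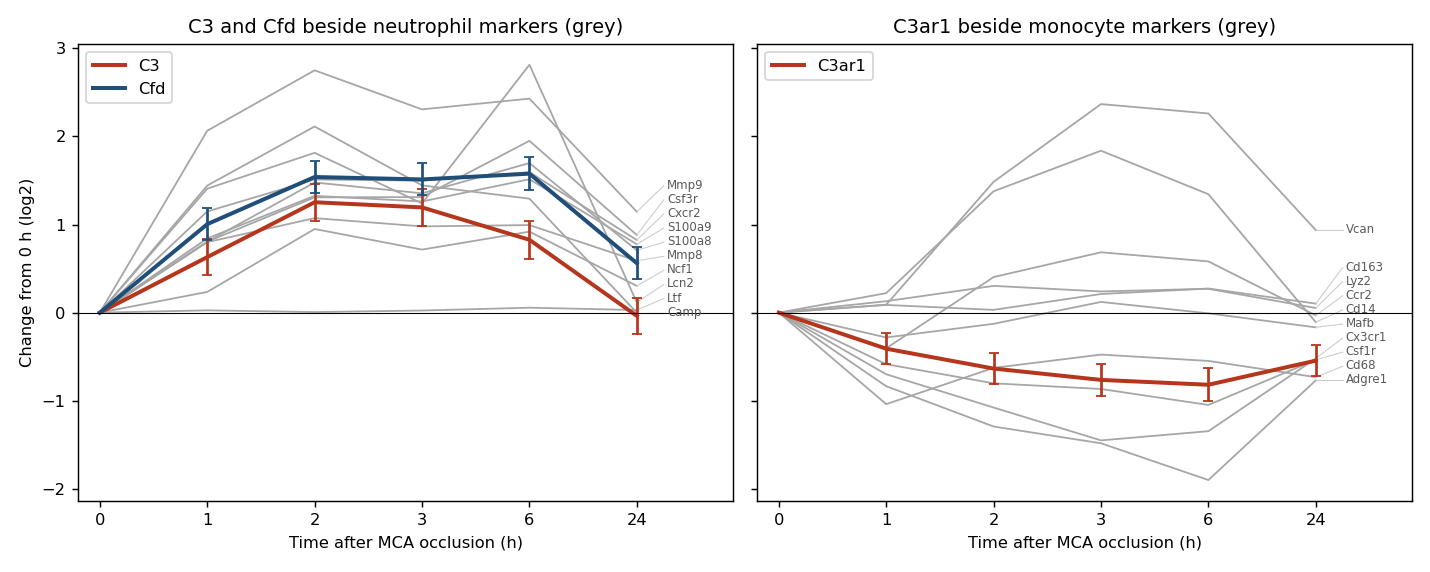
Change from 0 h in log2 signal (y axis) at 0, 1, 2, 3, 6 and 24 h post MCA occlusion (x axis, evenly spaced), with C3 and Cfd beside the 10 neutrophil markers in grey on the left, and C3ar1 beside the 10 monocyte markers in grey on the right; bars on the coloured lines are 95% intervals. Cfd stays within the wide range of the neutrophil markers to 24 h, and C3 ends at -0.04. C3ar1 stays below 0 while the monocyte markers spread to both sides, 5 called higher and 4 lower at 6 h.

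The genes outside the complement list whose 5 changes from 0 h came nearest to those of each strongly changed gene were found by the root mean square difference over the 5 later time points. Nearest to C3 were Cxadr, a receptor of epithelial junctions (0.112), Pcp4, a calmodulin-binding peptide (0.114), and Mapk13, a p38 kinase (0.143). Nearest to Cfd were Lrg1, a glycoprotein of neutrophil granules and plasma (0.107), Tf, transferrin (0.117), and Mettl9, a methyltransferase (0.12). Nearest to C3ar1 were Rnf14, a ubiquitin ligase (0.0382), Camk4, a calcium-dependent kinase (0.0429), and Nop58, a nucleolar protein (0.0466). These differences were not scaled by the size of a gene's changes. The largest change was smaller in size for C3ar1 (-0.82) than for C3 (1.25) and Cfd (1.58). The differences are therefore not compared between C3, Cfd and C3ar1.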

How the data were processed

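RNA from whole blood cell pellets of 8 rats was hybridized to 47 Affymetrix RaGene-1_0-st-v1 arrays. Per the file headers, the authors made gene-level RMA values (background correction, quantile normalization, summary per probe set) with annotation on rn5; the deposited table gives, on the log2 scale, the mean and SD of each time point for 27596 probe sets (6190 without a symbol). Array number and between-rat spread set the precision, and counting depth does not apply. The table's 47 single-array columns are numbered, with no rat or time in their names; they were not assigned to samples by order, and were not used. Its 19 columns of the authors' comparisons (fold changes, p-values, false discovery rates and F-tests) were not used either.

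From means, SDs and array numbers, residual variances were pooled over the 6 time points (41 degrees of freedom), moderated with limma 3.58.1 (squeezeVar, R 4.3.3; prior 5.71 degrees of freedom), and used for an F-test and all 15 pairs of time points, adjusted by Benjamini-Hochberg; comparisons with 0 h share the 0 h arrays. The code was tested on simulated data. Per symbol, the probe set with the highest mean was taken. Named genes were the members, set list genes, list genes past the F-test with a largest change over 0.5, and the 3 nearest profiles of each member changed by over 0.5. The values of 1 list gene are not reported here. The members and lists were chosen with earlier results of these data known. Alternatives were no moderation, an intensity trend with a robust prior, centred or quantile-normalized means, leaving out the dimmest 25% (mean under 5.63), other probe sets of a symbol, no 24 h samples and, added after seeing the data, the variance of the 2 time points compared.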

Additional observations from a re-analysis of the deposited data

Results flagged for a closer look

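For 5 of the 7 genes the change from 0 h at 24 h differed from that at 6 h. This was tested by the difference between the 6 h and 24 h samples themselves. Of all probe sets, 10.2% were called higher and 8.68% lower at 24 h than at 6 h. The 24 h minus 6 h difference was -0.86 for C3 (adjusted p = 1.38e-08), -0.41 for the probe set of Cfb and C2 (1.81e-04), -1.02 for Cfd (4.80e-12), 0.27 for C3ar1 (0.0286) and -0.43 for Cd55 (1.49e-04), each from limma's moderated test. With the variance of these 2 time points alone, the difference of C3ar1 did not pass the threshold (adjusted p = 0.0879). Each difference ran towards the gene's 0 h mean. In C3 and Cd55 the 24 h mean lay 0.04 and 0.09 under it, neither past the threshold (adjusted p = 0.814 and 0.422). Time and the site of sampling, tail vein at 6 h and heart at 24 h, cannot be told apart in these differences. For single outlying rats no check was made, since single-array values were not used.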

How the results depend on the processing

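All 7 genes passed the F-test under each alternative, with adjusted p of 0.00164 to 0.0341 for C1qa, the weakest, while 48.1% to 65.2% of all probe sets passed. The F-test called 28 to 32 of the 43 probe sets of the complement list, against 32, and 27 of 34 without the dimmest 25%. The pair tests called 52 to 60 of the 105 pairs, against 59. At 1 h the genes called lower numbered 2, against 1, with centred or quantile-normalized means, without the dimmest 25% of probe sets and with the variance of the 2 time points compared, the last chosen after seeing the data; the added gene was Cfb. At 24 h the genes called higher numbered 2, against 1, with quantile-normalized means, the added gene being Cfp (0.21, adjusted p = 0.0104). Counted over each single difference from 0 h under each alternative, 193 values kept direction and side of the threshold, 6 lost a call (C1qa at 1 h and 2 h, under 3 alternatives each), 5 gained one (Cfb at 1 h under 4, Cfp at 24 h under 1) and 6 changed sign, none of which passed the threshold. With quantile-normalized means these were C1qa at 6 h (-0.0138), C3 at 24 h (0.0298) and Cd55 at 1 h (0.0383) and 3 h (0.0211), and with centred means Cfb at 2 h (-0.0213) and 24 h (-0.0029). No paired analysis was possible because the single-array columns carry no rat or time in their names, and an assignment by column order alone was not made, so the replicate block was not run and no rat was left out in turn. Each member has 1 probe set, so no other could take its place. The number of arrays limits the precision: the 95% intervals against 0 h reach about 0.12 to 0.22 to each side.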
